A study of Rattus norvegicus with 13 samples.

Results

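MicroRNA levels of cultured rat astrocytes were set against those of cultured oligodendrocytes, the other macroglial type of the brain. The arrays carried probes for 350 rat miRNAs, named here without the prefix rno-. The 205 of them that the scanner software called detected on at least 3 of the 4 astrocyte and 3 oligodendrocyte arrays are described. Both kinds of culture were made from rat cortex, taken on postnatal day 1. Astrocytes (n = 4 arrays) were grown for 10 days in medium with horse serum and then shaken overnight to detach other cells. Oligodendrocytes (n = 3 arrays) were the cells that a short shake released from mixed cultures at 10 days in vitro, plated on poly-lysine. Purity, strain, sex and the number of animals behind a culture are not given in the sources used here. Each array received 100 ng of total RNA labelled with Cy3. Cultures of neurons and microglia (n = 3 arrays each) completed the series of 13 arrays and entered the fit that gave the error.

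A miRNA is an RNA of about the length of the sequences below that guides a repressor complex to messenger RNAs. Pairing is led by its seed, bases 2 to 8, so miRNAs with the same seed share many predicted targets, and several miRNAs can be cut from 1 transcript. In the oligodendrocyte lineage miR-219 and miR-338 are known to promote the exit from the precursor state and myelination in mice. In astrocytes miR-21 and the miR-29 family are among the best studied, the first in injury responses and the second as repressors of extracellular matrix genes. The miR-34 and miR-449 families share a seed and are known for their part in the formation of motile cilia.

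The sequences that carry the largest or most instructive differences are printed first, from RefSeq (GRCr8), 5′ to 3′ with the seed in capitals. The first 4 were lower in astrocytes than in oligodendrocytes and belong to the oligodendrocyte-associated list.
miR-219-5p: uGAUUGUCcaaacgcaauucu
miR-219-2-3p: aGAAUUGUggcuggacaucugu
miR-338: uCCAGCAUcagugauuuuguuga
miR-138: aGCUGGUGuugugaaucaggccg
The next 4 share the seed GGCAGUG and were all higher in astrocytes.
miR-449a: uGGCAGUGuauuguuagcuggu
miR-34a: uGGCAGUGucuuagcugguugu
miR-34b: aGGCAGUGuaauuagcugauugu
miR-34c: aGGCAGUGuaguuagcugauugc
The pairs that follow are near-identical in sequence, and only the first of each pair was higher in astrocytes. Each pair differs at 1 position outside the seed.
miR-23a: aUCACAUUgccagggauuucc
miR-23b: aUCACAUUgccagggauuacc
miR-27a: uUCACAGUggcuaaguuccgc
miR-27b: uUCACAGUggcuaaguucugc
miR-135a: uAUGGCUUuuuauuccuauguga
miR-135b: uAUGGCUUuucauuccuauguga
The last set shares the seed AGCAGCA but did not move as 1 group, since miR-195 and miR-497 were higher in astrocytes, miR-322 was lower and miR-16 passed no test.
miR-195: uAGCAGCAcagaaauauuggc
miR-497: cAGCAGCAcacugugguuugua
miR-16: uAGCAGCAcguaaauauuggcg
miR-322: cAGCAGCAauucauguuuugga

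Levels are log2 of the intensity of a miRNA relative to the 75th percentile of its array, so 0 is that percentile and 1 unit is a doubling. Signals too low to order were set to a floor of -8.04. Because probes differ in brightness, levels of different miRNAs are not set against each other. Differences are astrocytes minus oligodendrocytes with the SE of the limma fit, and a miRNA was called higher or lower at a Benjamini-Hochberg adjusted p under 0.05 over the 268 miRNAs tested on the series. The study describes its arrays as biological replicates without saying whether they were separate cultures or animals, and the p-values measure the spread between these arrays. Arrays at the floor share 1 value, so a type wholly at the floor adds no spread. The p-values of such miRNAs overstate the certainty. In cultures that may hold several cell types, fewer cells of a type and less RNA per cell cannot be told apart.

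All 4 astrocyte arrays lay on slide 2 with microglia and all 3 oligodendrocyte arrays on slide 1 with neurons, so slide and cell type cannot be told apart. Of the 66 miRNAs higher in astrocytes, 20 were also higher on all 7 arrays of slide 2 than on all 6 arrays of slide 1, and 19 of the 77 lower ones showed the reverse pattern. The 20 include miR-21, miR-23a, miR-24, miR-27a, miR-28, miR-34a, miR-152, miR-221 and miR-222. The 19 include miR-124, miR-137, miR-138, miR-181a, miR-327, miR-488, miR-494 and miR-551b. The summed signal was 147103 to 300152 on astrocyte arrays and 107624 to 185688 on oligodendrocyte arrays, with 160 to 208 and 193 to 201 miRNAs detected. Arrays of a type correlated at a median r of 0.997 for astrocytes (6 pairs) and 0.981 for oligodendrocytes (3 pairs), against 0.856 between the types (12 pairs), over the levels of the 205 miRNAs. Astrocyte array 3 stood apart in its background, with 528 outlier spots against 183 to 350 on the other 3 astrocyte arrays. Oligodendrocyte array 2 stood apart in its profile, with 28 of 205 miRNAs at least 2-fold away from the mean of the other 2 oligodendrocyte arrays. Its median r with the neuron arrays was 0.810, against 0.763 and 0.780 for the other 2. For part of the results that rest on it, values are also given without it.

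Among the 205 miRNAs, 66 were higher in astrocytes, 77 were lower and 62 passed no test. Over all 268 tested miRNAs 25.7% were called higher and 30.6% lower, or 56.3% in either direction. Some miRNAs were kept only because 1 type had them, and such a miRNA had to differ, so the 153 detected on all 7 arrays are counted apart. Of these 53 were higher in astrocytes (34.6%), 54 were lower (35.3%) and 46 passed no test, so that 69.9% were called in either direction, with a median difference of -0.02. A difference of at least 2-fold held for 24 of the 153 in the higher direction (15.7%) and 21 in the lower (13.7%). With normexp background correction and an added offset of 50, which compresses dim signals, 38 of the 72 named miRNAs had folds more than 1.5 times smaller. The levels of the 2 types did not overlap for 81.7% of the 153, against 65.7% of all 268. At the edge of the rule stood 14 miRNAs detected on exactly 3 of the 7 arrays, with mean levels of -7.87 to -5.94, and just outside it 7 detected on 2 arrays, at -7.88 to -7.01.

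**Figure D1:**
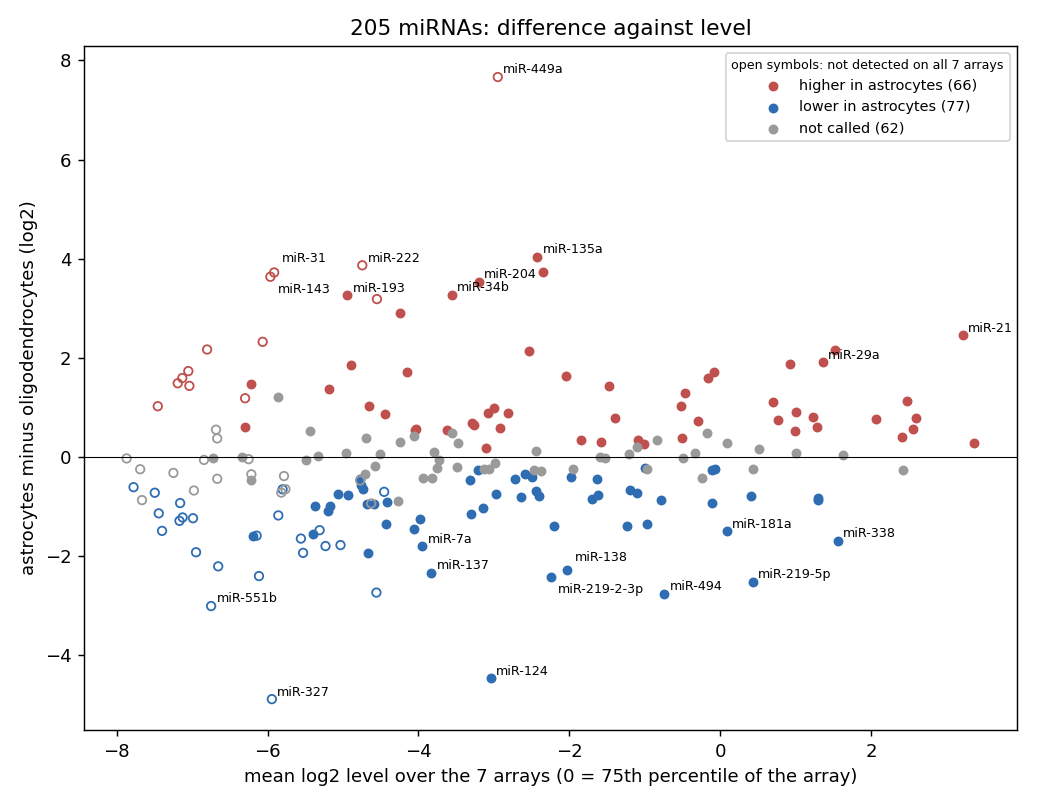
Difference between astrocytes and oligodendrocytes (log2, vertical axis) against the mean level over the 7 arrays (log2, horizontal axis) for the 205 miRNAs, with 66 higher in astrocytes in red, 77 lower in blue and 62 not called in grey. miR-449a lies highest at 7.67 and miR-327 lowest at -4.89, and open symbols are miRNAs not detected on all 7 arrays.

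The oligodendrocyte-associated list stood lower in astrocytes as a whole. Of its 8 miRNAs on the array 7 were among the 205, and all 7 were lower in astrocytes, with a median difference of -2.29 against -0.04 over all 268 tested. Of those 268, 30.6% were called lower. miR-219-5p, a promoter of oligodendrocyte differentiation, was at -0.78, -0.67, -0.61 and -0.54 on the astrocyte arrays and at 2.09, 1.59 and 1.95 on the oligodendrocyte arrays. All astrocyte arrays lay below all oligodendrocyte arrays, and the difference was -2.53 ± 0.26 (SE; adjusted p = 1.13e-05), or 5.77-fold. Neuron arrays, at -1.74 to -1.55, and microglia arrays, at -4.79 to -3.45, were lower still, so the oligodendrocyte arrays were the highest of the 4 types.

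From the other arm of a second miR-219 hairpin, miR-219-2-3p was at -3.42, -3.33, -3.18 and -3.19 in astrocytes and at -0.66, -1.20 and -0.71 in oligodendrocytes. It was 5.38-fold lower in astrocytes (-2.43 ± 0.27; adjusted p = 1.82e-05), with no overlap. miR-338, which acts beside miR-219 in mice, was at 0.73, 0.79, 0.91 and 0.90 in astrocytes and at 2.91, 1.87 and 2.80 in oligodendrocytes. Here oligodendrocyte array 2 was the lowest of its type, yet still above every astrocyte array. The difference of miR-338 was -1.69 ± 0.21 (adjusted p = 3.41e-05) and widened to -2.53 under quantile normalization. Its strand partner miR-338* differed by -2.41 ± 0.29 (adjusted p = 2.76e-05), while its 4 probes taken singly did not share a sign, with differences between -2.25 and 0.07.

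miR-138, which is also abundant in neurons, was at -3.11, -3.05, -2.98 and -2.90 in astrocytes and at -0.84, -0.52 and -0.79 in oligodendrocytes. It was 4.90-fold lower in astrocytes (-2.29 ± 0.20; adjusted p = 2.49e-06), and its neuron arrays stood between, at -1.46 to -1.22. Its passenger strand miR-138* was detected on no astrocyte array and on all 3 oligodendrocyte arrays, and was at least 2.30-fold lower in astrocytes (adjusted p = 0.00242). Oligodendrocytes, at -6.64 to -6.21, were not its highest type. Microglia arrays stood well above them, at -4.42 to -3.14, and neuron arrays just below, at -7.34 to -6.68. miR-32, the weakest of the list, differed by -0.58 ± 0.15 (adjusted p = 0.00658). With normexp correction 4 of the 7 listed miRNAs were still called lower and miR-338*, miR-138* and miR-32 were not.

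The cluster of miR-322 and miR-503 was lower in astrocytes too, a cluster which in rodents is known for restraining the cell cycle and for a role in muscle differentiation. Its 7 listed miRNAs lie at chrX:139995000-140000232 on the minus strand (rn4, positions of the probes' targets). All 7 were called lower in astrocytes, against 30.6% of all 268 tested, with a median of -1.78 and a range of -2.21 to -1.41. miR-322, the most closely studied member, was at -1.94, -1.89, -1.75 and -1.80 in astrocytes and at -0.23, -0.78 and -0.30 in oligodendrocytes (-1.41 ± 0.13; adjusted p = 4.07e-06). miR-503 was at -6.05, -5.85, -5.62 and -5.67 in astrocytes and at -4.09, -3.84 and -4.12 in oligodendrocytes (-1.78 ± 0.20; adjusted p = 2.16e-05). In neither did the types overlap, and the astrocyte arrays lay close to the neuron arrays, which were at -2.14 to -1.90 for miR-322 and -6.54 to -6.46 for miR-503. The rest of the cluster, miR-322*, miR-450a, miR-542-5p, miR-542-3p and miR-351, differed by -1.94, -1.80, -1.48, -1.46 and -2.21. Only miR-322, miR-322* and miR-542-3p were detected on all 7 arrays. With normexp correction 6 of the 7 were called, miR-351 being lost.

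The miR-181 family, whose members share the seed ACAUUCA and are known as regulators of inflammatory signalling and cell survival in astrocytes, was lower in astrocytes in all 4 members. Among all 268 tested miRNAs 30.6% were called lower. miR-181a was at -0.49, -0.47, -0.62 and -0.65 in astrocytes and at 0.99, 0.85 and 1.00 in oligodendrocytes. The difference was -1.51 ± 0.14 (adjusted p = 3.82e-06), several times the spread between arrays of a type. Neuron arrays, at 1.22 to 1.54, stood above oligodendrocytes, and microglia arrays, at -1.32 to -0.68, below astrocytes. miR-181b, from the same chromosome 13 cluster, differed by -1.36 ± 0.15 (adjusted p = 1.51e-05). miR-181c and miR-181d, from the chromosome 19 cluster, differed less, by -1.04 ± 0.21 and -0.74 ± 0.20 (adjusted p = 0.00115 and 0.00758). Without scaling of the arrays miR-181d was no longer called. For miR-181a, miR-181c and miR-181d every slide 2 array also lay below every slide 1 array.

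The miR-17-92 cluster, a set of growth-promoting miRNAs cut from 1 transcript, was lower in astrocytes. All 8 of its measured products at chr15:99853755-99854509 (rn4) were called lower, with differences of -1.59 to -0.80. The share called lower among all 268 tested was 30.6%. miR-17-5p was at -0.48, -0.60, -0.46 and -0.51 in astrocytes and at 0.29, 0.64 and 0.35 in oligodendrocytes (-0.94 ± 0.13; adjusted p = 0.000116). miR-19b was at 0.90, 0.87, 0.97 and 0.93 in astrocytes and at 1.81, 1.75 and 1.83 in oligodendrocytes (-0.88 ± 0.12; adjusted p = 8.72e-05). These were tight groups with no overlap, and both miRNAs were chosen for display after their values were seen. The paralogous miR-106b-25 cluster on chromosome 12, which in mice and humans lies in a DNA replication gene, had 1 of 4 members called, miR-25, which was higher in astrocytes by 0.33 ± 0.08 (adjusted p = 0.00318). That call was lost without scaling, with normexp correction and with the percentile taken over all miRNAs. Over the whole list of 13 miR-17-92 miRNAs and paralogs, 1 was higher, 9 were lower and 3 passed no test, with a median of -0.85. Without scaling 3 were lower.

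**Figure D2:**
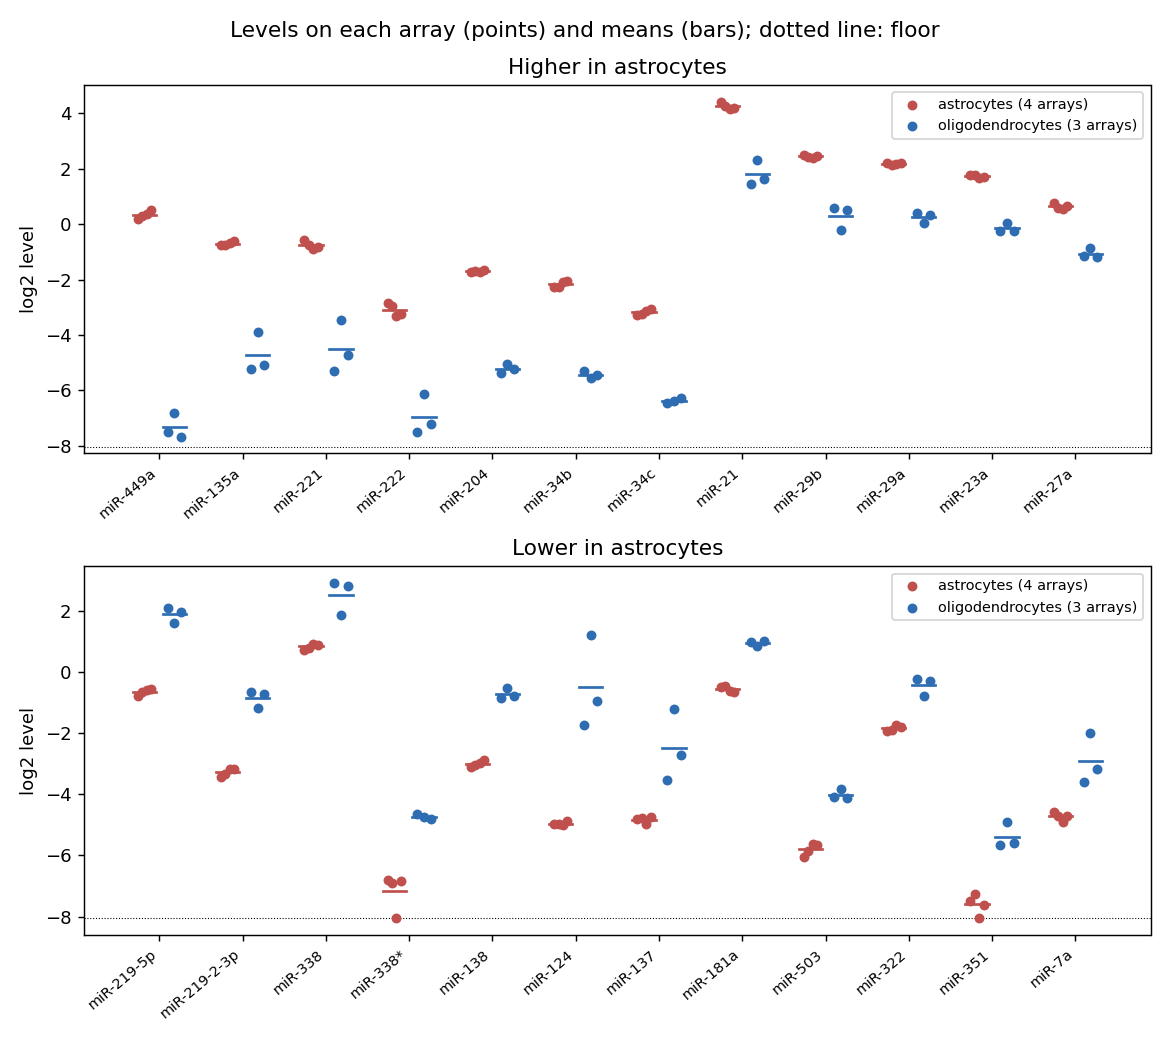
Log2 levels of 24 miRNAs on each of the 4 astrocyte arrays (red, left of each pair) and 3 oligodendrocyte arrays (blue, right), with the group mean as a bar and the floor of -8.04 as a dotted line. In every one of the 24 the points of the 2 types are separate; the widest spread within a type is that of miR-124 in oligodendrocytes.

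Neuronal miRNAs were mixed, and here oligodendrocyte array 2 mattered most. The neuron-associated list had 12 of 16 miRNAs among the 205, of which 1 was higher in astrocytes, 6 were lower and 5 passed no test, with a median of -0.39. The 1 higher was miR-9, which was called lower, at -0.53, under quantile normalization. Among all 268 tested 25.7% were called higher and 30.6% lower. miR-124, the most neuron-specific miRNA of the brain, was at -4.97, -4.98, -5.0 and -4.86 in astrocytes and at -1.72, 1.21 and -0.94 in oligodendrocytes, while neuron arrays stood at 2.95 to 3.33. All oligodendrocyte arrays were above all astrocyte arrays, but they spread over nearly 3 units, with array 2 nearest to neurons. The difference was -4.47 ± 0.54 (adjusted p = 2.95e-05), or 22.2-fold, and without oligodendrocyte array 2 it was -3.62 (adjusted p = 1.67e-06). miR-137, which is enriched in neurons and represses neuronal maturation genes, was at -4.81, -4.79, -4.98 and -4.74 in astrocytes and at -3.54, -1.22 and -2.72 in oligodendrocytes. It differed by -2.34 ± 0.40 (adjusted p = 0.000405), and by -1.70 without array 2.

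The same array was the highest of its type for miR-153 and miR-132, neuronal miRNAs chosen after their values were seen, neither of which was called with all arrays. miR-153 was at -2.57, -2.57, -2.64 and -2.55 in astrocytes and at -3.11, -1.18 and -2.68 in oligodendrocytes, so array 2 stood above all astrocyte arrays and the other 2 below them. Its difference was -0.26 with all arrays, and without array 2 it was called higher, at 0.31 (adjusted p = 0.0213). Over the 12 neuronal miRNAs array 2 stood a median of 0.57 above the mean of the other 2 oligodendrocyte arrays, and 9 of 12 were above it. Without that array 2 of the 12 were higher in astrocytes and 5 lower. The summed level of the list was 4.11 to 4.20 on astrocyte arrays, 4.14 to 4.37 on oligodendrocyte arrays and 5.87 to 5.92 on neuron arrays, a sum that the bright miR-9 and miR-9* weigh on. No listed miRNA among the 12 was at the floor in either type. The part of neuronal RNA in these differences was not tested.

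miR-7a, a miRNA of neurons and neuroendocrine cells, was lower in astrocytes (-1.81 ± 0.30; adjusted p = 0.000373), with array 2 again the highest oligodendrocyte array. miR-488, from an intron of the astrotactin 1 gene, was at -5.87, -5.89, -6.59 and -5.89 in astrocytes and at -4.32, -4.80 and -4.40 in oligodendrocytes. It differed by -1.55 ± 0.19 (adjusted p = 3.04e-05) and was at the floor in all microglia. Oligodendrocyte array 2 was here the lowest of its type.

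The imprinted Dlk1-Dio3 region, a large maternally expressed miRNA cluster on rat chromosome 6 known for its activity in neurons, had 5 of 49 miRNAs among the 205, and 39 were detected on none of the 7 arrays. Of the 5, 4 were lower in astrocytes, against 30.6% of all 268 tested, and 1, miR-409-3p, passed no test. The median of the 5 was -1.22. miR-494 was at -1.92, -1.69, -2.17 and -1.93 in astrocytes and at 0.27, 1.78 and 0.47 in oligodendrocytes. Its difference was -2.77 ± 0.32 (adjusted p = 2.03e-05), with array 2 the highest of the oligodendrocytes, above every neuron array (0.98 to 1.47). miR-134, a repressor of dendritic spine growth, differed by -1.65 ± 0.23 (adjusted p = 9.39e-05). All 5 were above the mean of the other oligodendrocyte arrays on array 2. Without it 4 of the 5 were still lower, with a median of -0.79, while with normexp correction only 1 was called.

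There were 6 miRNAs detected on oligodendrocyte arrays and on no astrocyte array, and 5 of them were called, which their choice favours. miR-327, a rodent miRNA, was at the floor on all 4 astrocyte arrays and at -4.32, -1.42 and -3.70 on oligodendrocyte arrays. It was at least 27.8-fold lower in astrocytes (adjusted p = 1.70e-05), with neurons at -2.07 to -1.40 and array 2 again nearest to them. Without array 2 the fitted difference was -4.07, against -4.89 with it. miR-551b was likewise at the floor in astrocytes and at -5.25, -4.70 and -5.13 in oligodendrocytes, at least 7.56-fold lower (adjusted p = 1.55e-06), and neurons had far more of it (-0.38 to -0.29). miR-138* and miR-423 were at least 2.30-fold and 2.07-fold lower. miR-30c-1*, at least 1.43-fold lower, was no longer called without any 1 of the astrocyte arrays or without oligodendrocyte array 2. miR-760-5p was not called (-0.87 ± 0.47; adjusted p = 0.137). With normexp correction miR-551b, miR-138*, miR-423 and miR-30c-1* lost their call.

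In the other direction the shared seed of miR-34 and miR-449 gave the largest difference of all. The list of ciliated-cell and choroid plexus miRNAs had 5 of 8 miRNAs among the 205, all 5 higher in astrocytes, with a median of 3.27. The share called higher among all 268 tested was 25.7%. miR-449a, a miRNA of multiciliated cells encoded at chr2:44418291-44418309 (rn4, plus strand), was at 0.18, 0.28, 0.38 and 0.51 in astrocytes and at -7.51, -6.81 and -7.66 in oligodendrocytes. No oligodendrocyte array detected it, whereas neurons and microglia lay between, at -3.77 to -3.67 and -5.21 to -4.47. The fitted difference of 7.67 made it 203-fold higher in astrocytes (adjusted p = 3.14e-10). This is an estimate and not a lower bound, since its own signal in oligodendrocytes exceeded the lowest detected one. Its 2 probes taken singly gave differences of 7.06 and 7.64, both below the 7.67 of their mean. With normexp correction the fitted difference was 4.10 in place of 7.67.

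miR-34b and miR-34c lie together at chr8:54422094-54422639 (rn4) and moved by nearly the same amount. miR-34b was at -2.26, -2.26, -2.07 and -2.05 in astrocytes and at -5.28, -5.55 and -5.44 in oligodendrocytes (3.27 ± 0.10; adjusted p = 4.04e-10). miR-34c differed by 3.18 ± 0.17 (adjusted p = 5.86e-08) and was detected on 2 of 3 oligodendrocyte arrays. miR-34a, the broadly expressed member from chromosome 5 that p53 induces, was at 0.55, 0.45, 0.53 and 0.55 in astrocytes and at -1.12, -1.01 and -1.08 in oligodendrocytes. Its difference of 1.59 ± 0.09 (adjusted p = 5.86e-08) was smaller, and microglia exceeded astrocytes, at 1.39 to 1.73. miR-204, a miRNA of choroid plexus, retinal pigment epithelium and astrocytes, was at -1.72, -1.68, -1.71 and -1.64 in astrocytes and at -5.37, -5.04 and -5.23 in oligodendrocytes (3.53 ± 0.53; adjusted p = 0.000164). With normexp correction miR-34b, miR-34c and miR-204 differed by 1.65, 1.14 and 1.99 and were still called. Neurons had more of it than astrocytes, at -0.37 to -0.13. Summed over the 5, the level was 1.68 to 1.84 on astrocyte arrays and -0.92 to -0.81 on oligodendrocyte arrays. The same sum was 1.43 to 1.75 on microglia arrays, overlapping with astrocytes, and 1.13 to 1.19 on neuron arrays. A high sum was thus not particular to astrocytes, and oligodendrocytes were the low type. The microglial sum lay close to the level of miR-34a alone, at 1.39 to 1.73 on microglia arrays. By contrast, miR-449a, miR-34b, miR-34c and miR-204 were each lower on every microglia array than on every astrocyte array. The microglial sum therefore does not stand for those miRNAs. miR-204* was detected on none of the 7 arrays. Whether ciliated cells in the astrocyte cultures had a part in this was not tested.

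miR-135a, which represses serotonin pathway genes in neurons, was at -0.76, -0.73, -0.69 and -0.61 in astrocytes and at -5.21, -3.90 and -5.09 in oligodendrocytes. The 16.4-fold difference (4.04 ± 0.25; adjusted p = 1.72e-07) was the largest in the higher direction among miRNAs detected on all 7 arrays, and was 2.69 with normexp correction. Neurons were close to astrocytes, at -1.36 to -1.32. Its near-identical paralog miR-135b, printed above, was at -4.92, -5.0, -5.14 and -4.85 in astrocytes and at -5.45, -3.32 and -4.73 in oligodendrocytes, with overlap and no call (-0.48 ± 0.37; adjusted p = 0.301).

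miR-221 and miR-222, which come from 1 transcript, share the seed GCUACAU and repress the cell cycle inhibitor p27, lie at chrX:14935124-14935703 (rn4). miR-221 was at -0.57, -0.73, -0.88 and -0.84 in astrocytes and at -5.28, -3.47 and -4.71 in oligodendrocytes (3.73 ± 0.36; adjusted p = 5.60e-06). miR-222 was at -2.86, -2.95, -3.31 and -3.23 in astrocytes and at -7.50, -6.14 and -7.22 in oligodendrocytes, of which 1 array detected it (3.87 ± 0.31; adjusted p = 1.65e-06). The pair was thus 13.3-fold and 14.6-fold higher in astrocytes, with no overlap, and with normexp correction the differences were 2.52 and 1.22. Oligodendrocyte array 2 was the highest of its type in both, and microglia, on the slide of the astrocytes, were near astrocyte levels. Without array 2 the median of the 2 differences was 4.26, against 3.80 with it.

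The astrocyte-associated list had all 11 of its miRNAs among the 205. Of these 9 were higher in astrocytes, 0 were lower and 2 passed no test, miR-23b and miR-27b, and the median was 1.29. Among all 268 tested 25.7% were called higher. miR-21 was at 4.43, 4.27, 4.18 and 4.21 in astrocytes and at 1.47, 2.34 and 1.65 in oligodendrocytes. It was 5.48-fold higher (2.45 ± 0.26; adjusted p = 1.42e-05), but microglia reached 4.25 to 5.45, so a high level of it was not particular to astrocytes. The 3 members of the miR-29 family, with the shared seed AGCACCA, were all higher. miR-29a was at 2.22, 2.13, 2.16 and 2.21 in astrocytes and at 0.40, 0.06 and 0.35 in oligodendrocytes (1.91 ± 0.09; adjusted p = 2.87e-08). miR-29b differed by 2.16 ± 0.15 (adjusted p = 6.14e-07) and miR-29c by 1.29 ± 0.08 (adjusted p = 1.72e-07). For all 3 the astrocyte arrays lay above those of the other types except for miR-29c, where neurons (0.61 to 0.82) were higher and microglia overlapped with astrocytes.

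Within the same list the 2 clusters of miR-23, miR-27 and miR-24 parted. The cluster at chr19:25638492-25638770 (rn4) gives miR-23a, miR-27a and miR-24-2*, and all 3 were higher in astrocytes. miR-23a was at 1.76, 1.79, 1.66 and 1.72 in astrocytes and at -0.26, 0.06 and -0.25 in oligodendrocytes (1.88 ± 0.08; adjusted p = 1.05e-08). miR-27a was at 0.75, 0.60, 0.57 and 0.67 in astrocytes and at -1.15, -0.86 and -1.17 in oligodendrocytes (1.71 ± 0.11; adjusted p = 1.73e-07). The cluster at chr17:7350974-7351724 gives miR-23b and miR-27b, whose types overlapped. miR-23b was at 1.03, 1.09, 1.06 and 0.99 in astrocytes and at 1.23, 0.59 and 1.08 in oligodendrocytes, a difference of 0.08 with a 95% interval of -0.24 to 0.40. miR-27b differed by -0.25 (-0.53 to 0.04), and without oligodendrocyte array 2 or under quantile normalization it was called lower, at -0.44 and -0.39. Probes for such close paralogs can share signal. miR-24, which both clusters encode, was higher by 0.74 ± 0.05 (adjusted p = 3.28e-07). For miR-23a, miR-27a, miR-24-2* and miR-24 every slide 2 array, microglia included, also lay above every slide 1 array.

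Among the remaining members of the list, miR-125b-5p was 2.19-fold higher in astrocytes (1.13 ± 0.17; adjusted p = 0.00018) and miR-26a 1.52-fold (0.60 ± 0.08; adjusted p = 7.83e-05), miR-26a not being called without scaling. miR-125b-5p belongs with miR-99a and miR-100 to clusters that also hold let-7 genes. Of the 5 listed miRNAs of the group around miR-99, miR-100 and miR-125, miR-100 (1.44 ± 0.11), miR-99a and miR-125b-5p were higher, while miR-99b and miR-125a-5p, neighbours on chromosome 1, passed no test. Of 8 let-7 miRNAs, the classical differentiation-associated family, 5 were higher and 3 passed no test, and the differences were small (0.06 to 0.79). For both groups the share called higher among all 268 tested was 25.7%. let-7c was at 2.97, 2.92, 2.91 and 2.95 in astrocytes and at 2.09, 2.23 and 2.13 in oligodendrocytes (0.79 ± 0.08; adjusted p = 1.09e-05). let-7a differed by 0.56 ± 0.08 (adjusted p = 9.93e-05) but by 0 under quantile normalization, where 3 of the 8 were called.

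**Figure D3:**
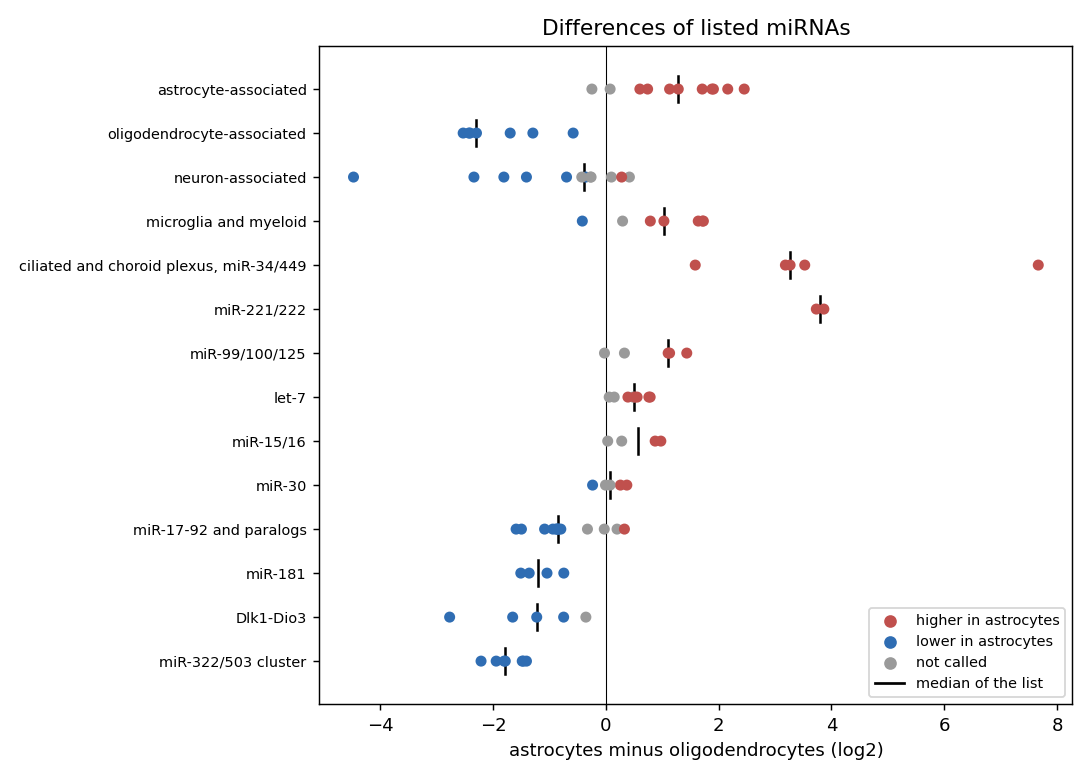
Difference between astrocytes and oligodendrocytes (log2) for each miRNA of 14 lists, 1 point a miRNA, coloured by call, with the median of each list as a black bar. All 7 points of the oligodendrocyte-associated list lie left of 0 and 9 of 11 of the astrocyte-associated list are called right of it, while the neuronal list spans both sides.

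Myeloid miRNAs were for the most part higher in astrocytes. All 7 of the listed miRNAs on the array were among the 205, of which 5 were higher in astrocytes, 1 (miR-342-3p) was lower and 1 (miR-142-5p) passed no test, with a median of 1.03. Over all 268 tested, 25.7% were called higher. All 5 were also among the 20 that stood higher on every slide 2 array than on every slide 1 array. Slide 2 also held the microglia. miR-146b, a brake on inflammatory signalling, was at -3.43, -3.39, -3.44 and -3.39 in astrocytes and at -5.07, -5.22 and -5.10 in oligodendrocytes (1.72 ± 0.07; adjusted p = 1.02e-08). The blood-cell miRNA miR-142-3p, chosen after its values were seen, was at -1.05, -1.05, -1.07 and -1.07 in astrocytes and at -2.29, -1.21 and -2.04 in oligodendrocytes (0.79 ± 0.23; adjusted p = 0.0118). Microglia arrays were at 2.27 to 2.91 for it and neuron arrays at -7.77 to -7.60. miR-150, a lymphoid and myeloid miRNA, was detected on 3 astrocyte arrays and no oligodendrocyte array and was at least 2.79-fold higher in astrocytes (adjusted p = 2.95e-05). The summed level of the list was 1.12 to 1.17 on astrocyte arrays, -0.16 to 1.02 on oligodendrocyte arrays, with array 2 the highest, and 4.86 to 5.07 on microglia arrays. Without array 2 the median was 1.49 and 6 were higher. None of the 7 was at the floor in astrocytes, and miR-150 alone was at the floor in oligodendrocytes. The part of microglial RNA in these levels was not tested.

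**Figure D4:**
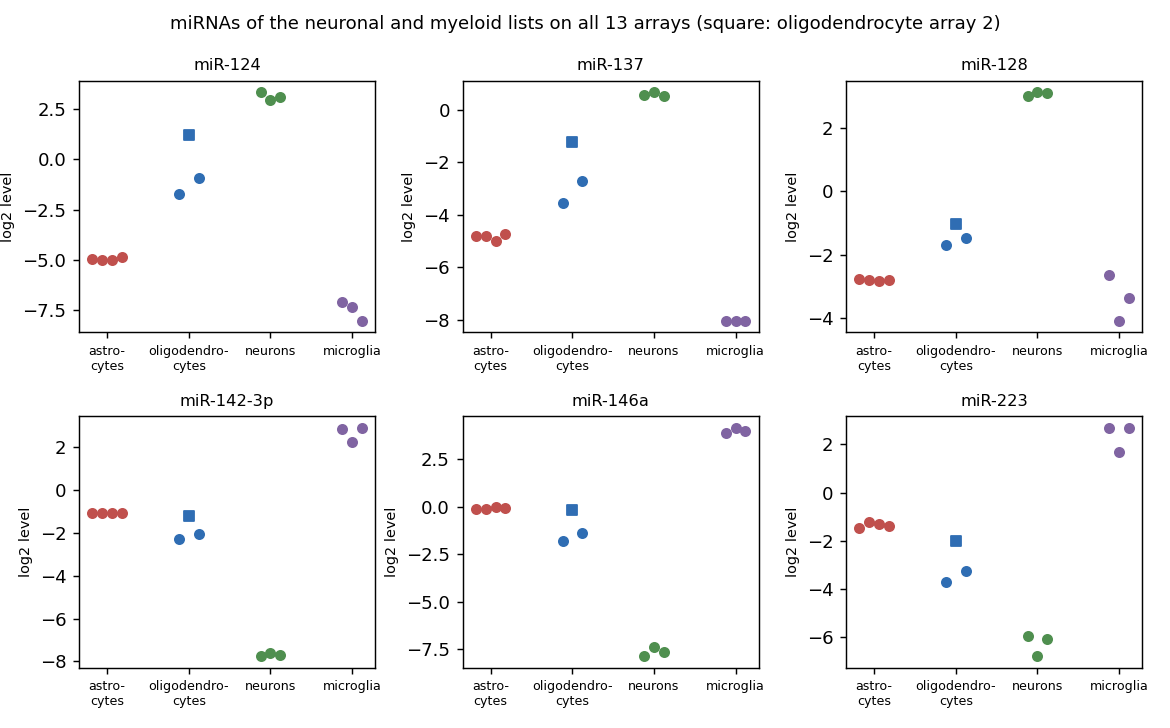
Log2 levels of 3 miRNAs of the neuronal list (top) and 3 of the myeloid list (bottom) on all 13 arrays, with astrocytes and oligodendrocytes to the left of neurons and microglia and oligodendrocyte array 2 as a square. The square lies nearest to neurons among the oligodendrocyte arrays for miR-124, at 1.21, and nearest to microglia for miR-142-3p, at -1.21.

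There were 9 miRNAs detected on astrocyte arrays and on no oligodendrocyte array, and all 9 were called higher, which their choice favours. Besides miR-449a and miR-150, these included miR-31, known from fibroblasts and epithelia, at -4.00, -4.32, -4.44 and -4.50 in astrocytes and at the floor on every other array of the series. Astrocytes had at least 11.1-fold more of it than oligodendrocytes (adjusted p = 3.14e-10). The floored arrays of the other types add no spread, so this p-value overstates the certainty. miR-143, a miRNA of smooth muscle and other mesenchymal cells, was at -4.03, -4.39, -4.76 and -4.43 in astrocytes and at the floor in oligodendrocytes, at least 10.5-fold higher (adjusted p = 2.31e-09). Its cluster partner miR-145 and miR-126* were detected on none of the 7 arrays, while the endothelial miR-126 was detected on 1 astrocyte array and no oligodendrocyte array and so falls outside the 205. With normexp correction miR-31 and miR-143 were still called, with differences of 0.62 and 0.59. The bounds given here thus hold for the main processing only. The epithelial miR-203 and the endocrine miR-375 rose by at least 2.54-fold and 2.36-fold over oligodendrocytes, and the miR-200 family, miR-141, miR-205 and miR-429 were detected on none. miR-152 was at least 4.98-fold higher (adjusted p = 4.42e-06). Of 5 listed fibroblast and mesenchymal miRNAs miR-199a-3p and miR-10a-5p were measured, and neither was called (-0.18 ± 0.34 and 1.20 ± 0.48; adjusted p = 0.737 and 0.0532), though miR-10a-5p was called under 12 of 24 alternatives, among them quantile normalization and leaving out oligodendrocyte array 2. Muscle and erythroid miRNAs were detected on none of the 7 arrays. miR-375, miR-203, miR-150 and miR-152 lost their call with normexp correction.

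Several miRNAs outside the lists were much higher in astrocytes. miR-210, the classical miRNA of the hypoxia response, was at -3.08, -3.02, -2.89 and -2.97 in astrocytes and at -6.46, -5.0 and -6.23 in oligodendrocytes (2.91 ± 0.33; adjusted p = 1.82e-05). Astrocytes were highest of the 4 types for it, with neurons at -4.83 to -4.14 and microglia at -4.44 to -3.57. miR-193 and miR-365, encoded near each other on chromosome 10, differed by 3.26 ± 0.30 and 2.13 ± 0.14 (adjusted p = 4.40e-06 and 3.99e-07). miR-193 was at -3.40, -3.51, -3.79 and -3.49 in astrocytes and at -7.45, -6.13 and -6.85 in oligodendrocytes. miR-28 differed by 1.86 ± 0.16 (adjusted p = 2.49e-06).

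miRNAs with a common seed did not always go together. Of 24 seeds shared by at least 2 of the 170 miRNAs with a matched RefSeq sequence, 9 had all members called in 1 direction and 4 had calls in both directions. Relatives without a match, such as miR-99a and miR-30b-5p, are missing from these groups. Over all 268 tested miRNAs, 56.3% were called in either direction. The others held called members of 1 direction beside uncalled ones. The seed AGCAGCA held miR-195 (0.88 ± 0.23; adjusted p = 0.00637) and miR-497 (0.98 ± 0.36; adjusted p = 0.0389) on the higher side, miR-322 on the lower side, and miR-15b and miR-16 uncalled. miR-16 differed by 0.03 with a 95% interval of -0.10 to 0.17. The call of miR-497 was lost with most single arrays left out, at differences of 0.69 to 1.00, and remained without oligodendrocyte array 2. AUUGCAC held miR-92b and miR-25 higher and miR-92a and miR-32 lower, and GUAAACA held miR-30a higher and miR-30e and miR-384-5p lower. The 4 probes of miR-92b taken singly did not share a sign, with differences between -0.25 and 1.75. With normexp correction miR-25, miR-32 and miR-30e lost their call. That of miR-30e was also lost without scaling, with the brightest probe and without oligodendrocyte array 2. Without scaling miR-30a was not called either. CUCUGGG held miR-326 higher and miR-330* lower.

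**Figure D5:**
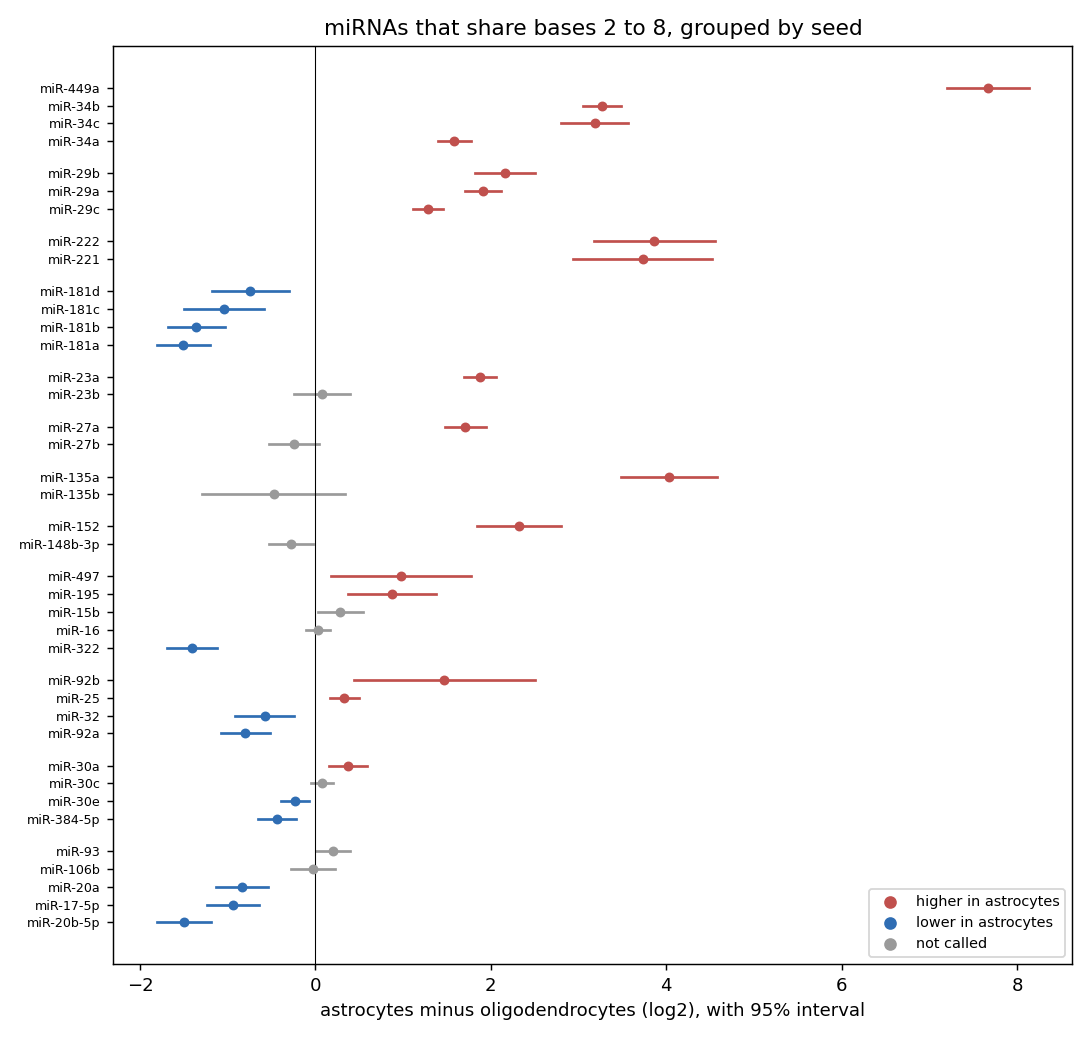
Difference between astrocytes and oligodendrocytes (log2) with its 95% interval for miRNAs grouped by shared seed, from miR-449a at the top to miR-20b-5p at the bottom, red where higher in astrocytes, blue where lower and grey where not called. The groups of miR-449a, miR-29a, miR-221 and miR-181a lie wholly on 1 side of 0, while those of miR-16 and miR-25 span it.

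The change in ratio between relatives was set out for 14 pairs chosen after their values were seen. The ratio of miR-23a to miR-23b was 1.81 log2 units higher in astrocytes, that of miR-27a to miR-27b 1.96, that of miR-135a to miR-135b 4.51 and that of miR-195 to miR-322 2.28. For all 14 the ratios on the 4 astrocyte arrays did not overlap with those on the 3 oligodendrocyte arrays. For such values the exact two-sided permutation test gives p = 0.0571 (0.0571 after adjustment over the 14), the smallest that 4 against 3 arrays allow. Because of how the pairs were chosen, neither p-value is evidence of a change in ratio. Single miRNAs already did not overlap for 81.7% of the 153 detected on all 7 arrays.

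miRNAs were also grouped by position. Of 41 groups of miRNAs within 10 kb of each other (rn4), 22 held at least 2 hairpins, with 72 miRNAs. None of the 22 had calls in both directions, 19 had calls in 1 direction and 3 had no call. Of 39 pairs of a miRNA and a strand partner both were called in the same direction in 20, 1 was called in 12 and neither in 7. In 0 pairs were the directions opposite. miR-30c entered with both miR-30c-1* and miR-30c-2*. The shares called among all 268 tested were 25.7% higher and 30.6% lower, or 56.3% in either direction. miR-135a and miR-135a* differed by 4.04 and 1.02, miR-29a and miR-29a* by 1.91 and 1.43, miR-322 and miR-322* by -1.41 and -1.94. Close probes on 1 transcript are not independent of each other.

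miR-9, a miRNA of neural progenitors and their descendants, was at 3.56, 3.51, 3.44 and 3.46 in astrocytes and at 3.21, 3.17 and 3.25 in oligodendrocytes, without overlap, and with a difference of 0.28 ± 0.06 (adjusted p = 0.00147) that changed sign under quantile normalization. Microglia, at -5.48 to -5.33, were far below both. Its strand partner miR-9* did not overlap either, in the other direction, and was not called, at -0.27 with a 95% interval of -0.82 to 0.28. Of the 46 miRNAs detected on all 7 arrays and not called, miR-30c (-0.05 to 0.20), miR-16 (-0.10 to 0.17) and miR-98 (-0.11 to 0.23) had 95% intervals that leave room for small differences only.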

How the data were processed

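The intensities are the authors' deposited Agilent Feature Extraction 9.5.3.1 output, background-subtracted per the file headers (grid build rn4); the deposited log2 table, whose scaling is not stated, was an alternative only. Spots flagged as outliers were left out, spots were averaged per probe and probes per miRNA. As scale served, for each array, the 75th percentile of the 119 miRNAs that every one of the 13 arrays detected; ratios to it were floored at 0.38% and taken to log2. All 13 arrays were fitted by type with limma 3.58.1 in R 4.3.3, with Benjamini-Hochberg adjustment over 268 miRNAs detected on at least 3 arrays. Where 1 type had no detected array, a fold is a lower bound against the higher, per array, of the lowest detected signal and its own. Such a bound holds for the main background, scaling and floor only. For miR-449a it equals the fitted fold. Of the 205 miRNAs 170 matched a RefSeq sequence. On simulated data over 268 miRNAs, 84.8% of changes of 1 log2 unit between astrocytes and oligodendrocytes were called. Ratios were tested with scipy 1.17.1; the plots used matplotlib 3.10.9. The number of arrays limits the precision.

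The members, the 19 lists and the naming rule were chosen with earlier results of these data known. Named were the 12 highest and 12 lowest called without overlap among those on all 7 arrays, up to 8 a direction detected on every array of 1 type and none of the other, every member of 6 lists, 2 of each other list and the 4 brightest; the other miRNAs named were chosen after their values were seen. Alternatives covered background, scaling, filter, floor, probe choice, fit and left-out arrays.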

Additional observations from a re-analysis of the deposited data

Results flagged for a closer look

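Among 56 named miRNAs and 16 lists checked on the 4 astrocyte arrays, 1 value stood apart from the other 3 by Dixon's ratio, where chance marks about 1 in 20 groups. miR-488 was lowest on astrocyte array 3, at -6.59 against -5.89 to -5.87 on the others (ratio 0.974). The SD of the raw signal of the negative control spots was highest on the same array, at 143.2 against 5.16 to 11.0 (ratio 0.957). Their part in the results was not tested; the counts without that array are given with the processing.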

How the results depend on the processing

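Scaling shifted the median difference of all tested miRNAs by at most 0.05. That median includes miRNAs at the floor in both types, where a shift cannot show. Measured lists moved more. The let-7 median was 0.50 in the main fit, 0.60 without scaling and 0.28 under quantile normalization. That of the group around miR-99, miR-100 and miR-125 was 1.11, 1.21 and 0.74. With normexp background correction 43 miRNAs were called higher in astrocytes and 38 lower, against 69 and 82, and 33 lower among those detected on all 7 arrays, against 54. Without scaling 51 were called lower, and among those on all 7 arrays 35 higher and 24 lower. The normexp alternative added an offset of 50, and the part of the offset in the lost calls was not tested. Without scaling the cause was not tested either. With 1 array left out 62 to 72 were higher and 75 to 83 lower, and among those on all 7 arrays 48 to 57 higher and 51 to 53 lower. Without astrocyte array 3 and oligodendrocyte array 2 together, an alternative chosen after seeing the data, 74 were higher and 68 lower, and 57 and 47 of those on all 7 arrays. Over 7 alternatives run on all 205 miRNAs 25 changed sign in at least 1, all with differences of at most 0.48, and 2 of those were called there, miR-9 and miR-153 (0.31 without oligodendrocyte array 2). Among the 72 named miRNAs, over every alternative, 3 did. miR-9 was called lower at -0.53 under quantile normalization and -0.46 in the authors' deposited table. The uncalled miR-23b was at -0.21 and -0.20 there, -0.12 with array weights, -0.09 without astrocyte array 3 and oligodendrocyte array 2, and between -0.11 (without oligodendrocyte array 2) and 0.21 with 1 array left out. The uncalled miR-199a-3p was at 0.087 with quantile normalization, 0.024 in the deposited table and 0.034 without oligodendrocyte array 1. With the replicate number as a block 64 were higher and 73 lower, and miR-30c-1* and miR-497 lost their call. Deviations of same-numbered arrays from their group means correlated at r of -0.16, 0.14 and 0.12 over 205 miRNAs. With so few arrays these values cannot decide whether the numbers pair them. Signal near background limits the dim miRNAs.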
